A study of Triticum aestivum with 8 samples.

Results

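The whdp probes are array probes named after clone-style identifiers that begin with whdp or rwhdp. They were followed here through prolonged cold in a synthetic hexaploid wheat (Triticum aestivum), a wheat rebuilt by crossing tetraploid wheat with a wild goat grass. The array carried 242 such probes for 206 clones, 176 with the whdp prefix and 66 with the rwhdp prefix, among 37826 non-control probes. The 157 probes described here were chosen by their detection: in at least 1 of the 4 groups, both arrays had their spots marked well above background by the scanner software. Of these, 113 carried the whdp prefix and 44 the rwhdp prefix, and together they covered 140 clones. Over the whole array 32796 probes passed the same rule.

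The 4 groups had 2 arrays each. Crown arrays held RNA of the shoot base with its apical meristem, from plants kept for 6 weeks at 4 °C after 3 weeks at 24 °C, or from 3-week-old plants grown at 24 °C only. Leaf arrays held first-leaf RNA, from plants kept for 12 weeks at 4 °C after 3 weeks at 24 °C, or from 3-week-old plants grown at 24 °C only. Cold plants were therefore older than their controls, and the cold periods of the tissues differed in length. The scan day was different for every group. The same version of the scanner software read both 4 °C groups, and other versions read the warm leaf and the warm crown arrays. No slide was shared between groups, and the warm leaf arrays were read on another scanner than all other arrays. Cold, age, scan day, slide and software version cannot be told apart. For comparisons with warm leaf the scanner cannot be told apart either. A free-text label of the crown 24 °C arrays speaks of leaves, while their title, source and tissue fields say crown. Across the 24596 probes that all 8 arrays detected, the crown 24 °C arrays correlated at 0.872 to 0.877 with the crown 4 °C arrays and at 0.65 to 0.654 with the leaf 24 °C arrays. None of 11 leaf and 9 crown marker symbols named a probe, so the tissues could not be checked against marker genes. Nothing states that the 2 arrays of a group came from separate plants, and their spread may be technical.

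Bread wheat acclimates when it is held for weeks just above freezing: it accumulates dehydrins, other cold-regulated proteins and sugars, and the need for vernalization is met. Leaves change their photosynthetic apparatus in this time, while the crown shelters the meristem from which the plant regrows after winter. A probe named after a clone reports the transcript that the clone was copied from, and the files used here pair no whdp probe with a gene: none of the 157 matched an entry of the RefSeq wheat gene table, and of 12 cold-response symbols the 6 found on the array named no whdp probe. No gene function is therefore given below, and probes are called by their own names. What the letters whdp and the leading r stand for is not stated in the sources used here. The number and letter after the prefix were read as the plate and well of a clone, so that probes sharing them were taken to share a clone.

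Levels are given as log2 signal relative to the 75th percentile of the same array, so that 0 is a bright probe. The dimmest detected probes lay between −8.47 and −7.89 on the 4 °C arrays and between −6.35 and −6.04 on the 24 °C arrays. Undetected probes could also read lower in the cold. The means of rwhdp1l18_571, detected on no array, were −10.76 in crown at 4 °C against −8.41 at 24 °C, and −10.32 against −8.52 in leaf. Signals of different probes do not compare amounts of transcript, so changes are followed within a probe. A change was called when limma's moderated test gave a Benjamini-Hochberg adjusted p under 0.05 over all probes tested and the change was at least 2-fold. With 2 arrays per group, an exact permutation test of a single probe could not go below a two-sided p of 0.333, and the precision rests on the spread pooled over the 8 arrays.

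Fewer of the whdp probes were detected in cold than in warm-grown tissue. In crown, 130 of the 157 were well above background on both 4 °C arrays, against 134 on both 24 °C arrays, and in leaf 109 were, against 124. Over all detected probes the share ran the other way, with 97.2% in crown at 4 °C against 85% at 24 °C, and 88.6% in leaf at 4 °C against 81.9% at 24 °C. Their median level was −4.99 in crown at 4 °C, against −2.52 in crown at 24 °C. In leaf it was −5.39 at 4 °C, against −2.87 at 24 °C. The medians over all detected probes moved far less, at −1.84 in cold crown against −1.94 in warm crown and −2.08 in cold leaf against −1.96 in warm leaf.

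Detection itself set several classes apart. All 4 groups detected 85 of the 157 probes (54.1%), compared with 75% of all detected probes. Another 18 (11.5%) were detected in both 24 °C groups and in neither 4 °C group. That pattern was rare on the array, with 92 probes or 0.281% of those detected, and whdp probes made up 19.6% of it. Of the 18, 16 carried the whdp prefix and 2 the rwhdp prefix. A further 10 were detected in cold crown only, 10 in crown at both temperatures, and 5 in both tissues in the cold only. These shares of 6.37%, 6.37% and 3.18% lay nearer those of all detected probes, at 4.96%, 4.33% and 3.61%. Since the rule kept a probe for being bright in any 1 group, these classes describe the selection and support no test.

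**Figure D1:**
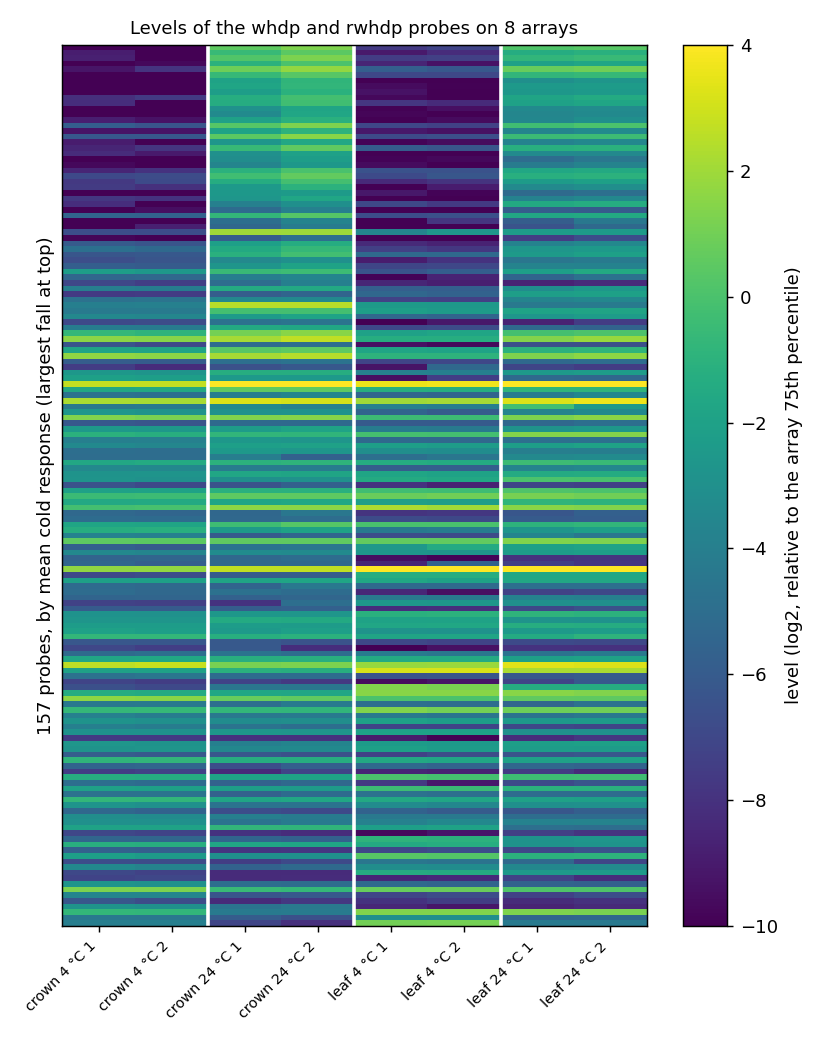
Level of each of the 157 whdp and rwhdp probes (rows, ordered by mean cold response with the largest fall at the top) on the 8 arrays (columns), as log2 signal relative to the array's 75th percentile. In the top rows both arrays of each 4 °C group are dark and both arrays of each 24 °C group are bright, in crown and in leaf.

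The probes nearest the detection limit show where the rule divided them. Just inside, whdp4a10_84 stood at −9.81 and −10.44 in crown at 4 °C, against −5.86 and −4.90 in crown at 24 °C, and was kept through the warm crown. The other, rwhdp7h09_1, was kept through cold crown, where it stood at −7.51 and −8.24. Just outside, whdp15p04_613 reached −6.20 and −4.58 in warm crown and whdp8m19_439 reached −3.66 and −7.35 there. Each of the excluded pair was well above background on 1 of those 2 arrays.

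After 6 weeks of cold the crown showed more whdp probes falling than rising. Of the 157 probes tested, 68 fell and 18 rose, which is 43.3% and 11.5%. Over all probes tested in crown, 16% were called lower and 20.4% higher. The median change was −0.81 on the log2 scale, against 0.17 over all probes. Among the 85 whdp probes well above background on all 8 arrays, 30 fell and 7 rose, beside 15.5% and 17% of all such probes.

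After 12 weeks of cold the leaf gave a like count. Of 134 probes tested there, 63 fell and 10 rose, or 47% and 7.46%. Over all probes tested in leaf, 20.7% were called lower and 13% higher. The median change was −0.86, against −0.09 over all probes. Of the 85 detected on all 8 arrays, 29 fell and 6 rose, beside 20.2% and 10.5% of all such probes. The rwhdp probes moved less in leaf: 6 of 36 fell and 3 rose with a median change of −0.11, while 57 of 98 whdp-prefixed probes fell and 7 rose with a median of −1.59. In crown the medians were −0.48 for rwhdp, with 13 of 44 falling, and −0.92 for whdp, with 55 of 113 falling. Among probes detected on all 8 arrays the crown medians stood in the other order. They were −0.85 for rwhdp, with 10 of 28 falling, and −0.21 for whdp, with 20 of 57 falling. In leaf that subset kept the order, at −0.004 for rwhdp and −0.82 for whdp. The difference between the prefixes was not tested, since probes of 1 array are not replicates.

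Both tissues often called the same probe. Of the 134 tested in both, 46 fell in both (34.3%), where 6.18% of all probes did so. Some of the 46, such as rwhdp6h14_213, passed the detection rule only through the 24 °C groups, where they were bright. This share is therefore descriptive and supports no test. In neither tissue were 38 called (28.4%), against 46.6% of all probes. Another 13 fell in crown without a call in leaf (9.7%, against 7.65% of all probes), and 15 fell in leaf without a call in crown (11.2%, against 10.9%). Rises in crown without a call in leaf came to 10 (7.46%, against 12.5% of all probes). Higher levels in both tissues were called for 3 probes (2.24%, against 3.89%), rwhdp12m15_579, rwhdp18b02_60 and whdp14a01_9. None of these 3 was well above background on both warm crown arrays, so the sizes of their crown rises were not measured. Another 5 probes were called in opposite directions.

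Probes that fell steeply in both tissues were taken as a group by the size of the fall. In both tissues, 31 of the whdp probes had a fitted change of at least 16-fold downwards in the cold, a size chosen after the values had been seen. Of these, 29 carried the whdp prefix and 2 the rwhdp prefix, and they belonged to 30 clones named for 18 of the 20 plates seen among the 157 probes. On the whole array 133 of the probes tested in both tissues fell that far, or 0.458%, so that the whdp probes made up 23.3% of them. As a share of all probes with the same name stem, detected or not, the 31 were 12.8%. Among 37 name stems with at least 100 probes the next highest shares were 2.34% for whvd, 1.95% for whe and 1.71% for whms. Of the 31, 13 were well above background on no cold array and passed the detection rule only through the warm groups. The size was also chosen from these values, so the shares are descriptive and support no test. The outermost spots of the 31 lay at rows 22 and 517 of 532 and at columns 4 and 82 of 85. How the 31 were placed between these limits was not tested. The crown change ran over them from −11.48 to −4.42 with a median of −7.76, and the leaf change ran from −8.24 to −4.46 with a median of −6.33. With cold levels that were not well above background put at their bound, explained below, the medians were −6.90 in crown and −5.17 in leaf, and 29 of the 31 were lower by at least 16-fold in both.

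**Figure D2:**
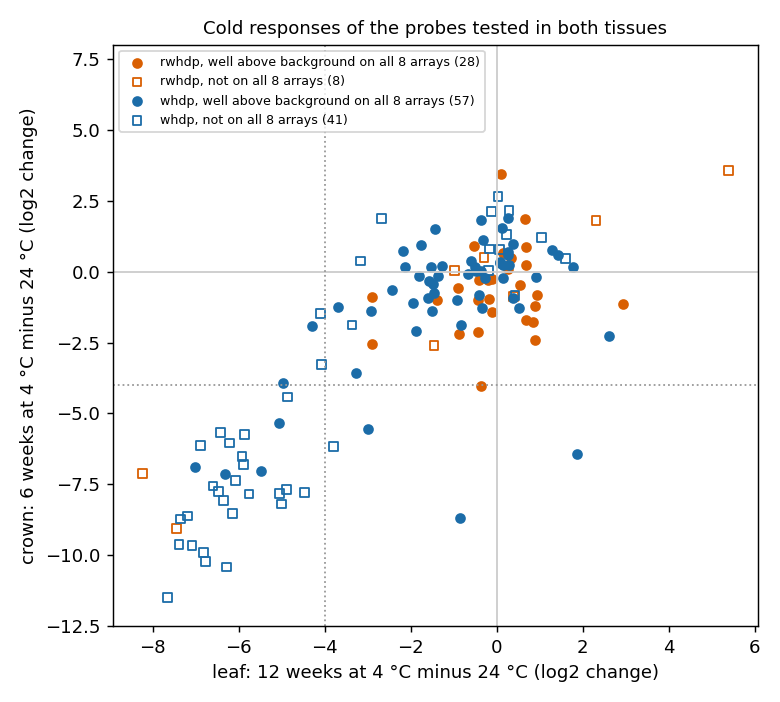
Cold response of the 134 whdp and rwhdp probes tested in both tissues, as the fitted log2 change at 4 °C minus 24 °C in leaf (x axis) and in crown (y axis). Filled circles are probes detected on all 8 arrays and open squares the others, and the dotted lines mark 16-fold. The lower left corner holds the 31 probes, 29 of them whdp, that were lower by at least 16-fold in both tissues.

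Of these 31 probes, 4 stayed well above background on all 8 arrays, so that their falls were measured on both sides. The first, whdp12b08_301, had levels of −6.16 and −6.15 in crown at 4 °C, against 0.47 and 1.49 at 24 °C. In leaf it had −6.86 and −6.62 at 4 °C, against −0.43 and −0.40 at 24 °C. No cold array came near a warm one, and the falls were 140-fold in crown and 80.2-fold in leaf (limma adjusted p 1e-05 and 1.2e-05). The next, whdp4n24_420, had −5.84 and −6.30 in crown at 4 °C, against 0.33 and 1.31 at 24 °C, and −7.02 and −7.32 in leaf at 4 °C, against −0.29 and 0.01 at 24 °C. Its falls of 119-fold in crown and 131-fold in leaf were of like size, with a crown minus leaf difference of 0.13 ± 0.50 log2 (SE).

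The other 2 of the 4 had smaller falls in leaf. The probe whdp2b07_159 had −6.90 and −6.76 in crown at 4 °C, against −0.27 and 0.65 at 24 °C, and −6.87 and −6.28 in leaf at 4 °C, against −1.18 and −1.01 at 24 °C. It was 130-fold lower in cold crown and 44.6-fold lower in cold leaf. For whdp13p23_90 the crown levels were −5.51 and −5.60 at 4 °C, against −0.74 and 0.30 at 24 °C, and the leaf levels −6.68 and −6.57 at 4 °C, against −1.62 and −1.48 at 24 °C. Its falls were 40.4-fold in crown and 33.7-fold in leaf. In these 4 probes the cold and warm arrays of each tissue were set apart by at least 4 log2 units.

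For most of the group the cold signal sank into the background, which leaves only a lower bound on the fall. A total of 13 of the 31 were well above background on no cold array. Bounds were taken as the mean level at 24 °C against, on each cold array, the higher of the probe's own level and the lowest level of any probe well above background. In crown 17 probes had such a bound, from at least 27.6-fold to at least 646-fold lower, with a median of 119. In leaf 19 had one, from at least 8.2-fold to at least 112-fold lower, with a median of 26.4.

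The largest bounds in crown belonged to whdp5e20_176 and whdp17c02_247. In crown, whdp5e20_176 stood at −10.61 and −10.54 at 4 °C, neither well above background, against 0.51 and 1.30 at 24 °C, and was at least 646-fold lower (limma adjusted p 1.5e-06). In leaf it could still be measured, at −7.63 and −7.14 at 4 °C against 0.16 and 0.39 at 24 °C, a change of −7.66 ± 0.29. The second, whdp17c02_247, stood at −8.77 and −10.23 in crown at 4 °C, against 0.20 and 1.25 at 24 °C, and was at least 567-fold lower. In leaf the largest bounds were those of whdp16f01_306, at least 112-fold lower, and rwhdp11g05_529, at least 86.1-fold lower. The leaf levels of rwhdp11g05_529 were −9.67 and −10.04 at 4 °C, against −1.81 and −1.41 at 24 °C.

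Other large leaf falls came from the same group. The level of whdp7k11_317 in leaf was −5.79 and −6.14 at 4 °C, against 0.75 and 0.96 at 24 °C, and that of whdp4a07_422 was −6.99 and −6.95 at 4 °C, against −0.77 and −0.62 at 24 °C. Their leaf changes were −6.82 ± 0.47 and −6.28 ± 0.29 (limma adjusted p 4.4e-05 and 9.6e-06). Both probes of clone whdp20o22 that carry an m or a p in their names belonged to the group. In crown whdp20o22_m_173 fell by 6.53. The probe whdp20o22_p_367 was well above background on no cold array, and was at least 40-fold lower in cold crown and at least 17.1-fold lower in cold leaf.

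The warm crown arrays differed from each other on these probes. Array 2 read above array 1 by a median of 1.02 log2, or 2.03-fold, and by at least 0.7 in 30 of the 31. The exception was whdp20n15_24, with −2.56 on array 1 and −2.39 on array 2. The other 103 whdp probes detected there differed by a median of 0.05, and 10 of them by at least 0.7. All probes well above background on every array differed by a median of −0.01. The other 102 probes of the array that fell as far in both tissues differed by a median of 0.96. In warm leaf array 2 read above array 1 by a median of 0.25 for the 31 probes, against 0.05 for the other whdp probes. The cause of the gap was not tested. The median crown change of the 31 was −8.19 without warm crown array 1 and −7.15 without array 2. The 31 were chosen by falls that include these same arrays, so leaving 1 out cannot test the falls.

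**Figure D3:**
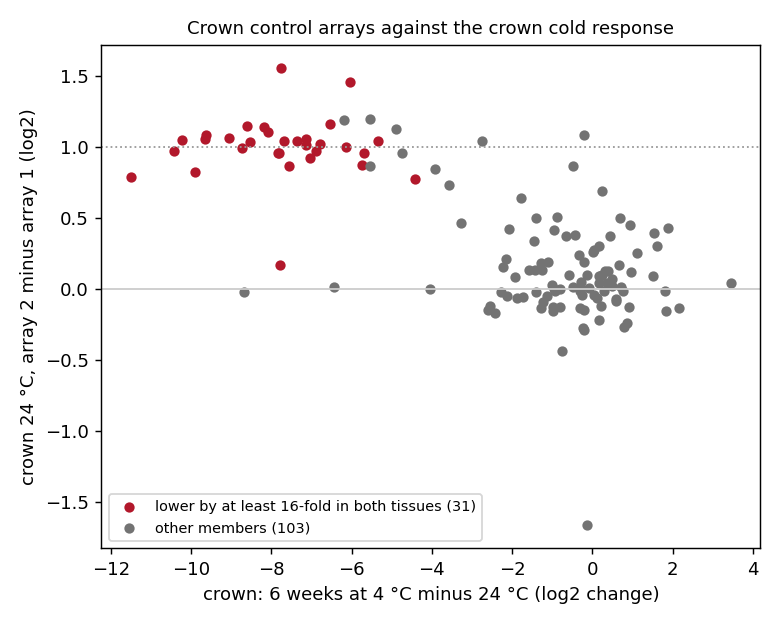
Difference between the 2 crown 24 °C arrays (y axis, array 2 minus array 1, log2) against the crown cold response (x axis, log2 change at 4 °C minus 24 °C) for the 134 whdp and rwhdp probes detected on both. Of the 31 probes lower by at least 16-fold in both tissues (red), 30 lie at 0.7 or above, while most other probes (grey) lie near 0.

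The size of these falls depended on how background and dim signals were treated. The normexp setting subtracted background and then added a constant of 50 to every signal, which compresses the changes of dim probes. With normexp and the same scaling, all 31 were still called lower in both tissues. The median changes were then −3.88 in crown and −2.90 in leaf, and 5 of the 157 fell by at least 16-fold in both. With normexp and quantile normalization 3 did, and 29 of the 31 were called lower in both. With every array raised to a common floor 14 did. How much of the smaller normexp changes, here and below, came from the added constant was not tested.

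A few whdp probes changed steeply in crown but not in leaf. The level of whdp16h12_282 was −6.70 and −6.70 in crown at 4 °C, against 1.98 and 1.96 at 24 °C, a 409-fold fall (limma adjusted p 4.8e-06). Its leaf levels were −3.66 and −2.64 at 4 °C, against −2.30 and −2.31 at 24 °C, and the change of −0.84 ± 0.30 was not called. It was thus 19.4-fold higher in crown than in leaf at 24 °C and 11.7-fold lower at 4 °C. The warm crown arrays agreed on this probe, unlike on the group above. In the same tissue rwhdp17k02_125 had −4.21 and −4.30 at 4 °C, against −0.20 and −0.20 at 24 °C, a change of −4.05 ± 0.08, and its leaf change was −0.37 ± 0.08.

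The sharpest contrast between the tissues was that of whdp20d12_104. In crown it had −3.93 and −3.92 at 4 °C, against 2.50 and 2.51 at 24 °C, an 86.4-fold fall. In leaf it had −2.39 and −2.41 at 4 °C, against −4.32 and −4.24 at 24 °C, a 3.68-fold rise. Arrays of a group differed by at most 0.08, and both changes were called (limma adjusted p 9.6e-08 and 1.5e-06). Its crown minus leaf response was −8.31 ± 0.07.

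Opposite responses were also called for 4 other probes. The level of whdp20g20_325 was −6.60 and −6.90 in crown at 4 °C, against −4.46 and −4.48 at 24 °C, while in leaf it was 1.34 and 1.20 at 4 °C, against −1.36 and −1.33 at 24 °C. It thus fell 4.87-fold in crown and rose 6.11-fold in leaf. For rwhdp13h20_148 the crown levels were −1.92 and −1.95 at 4 °C, against −0.78 and −0.82 at 24 °C, and the leaf levels −2.08 and −1.91 at 4 °C, against −4.87 and −4.99 at 24 °C. At 4 °C crown and leaf had like levels on this probe, beside a 17.5-fold excess in crown at 24 °C. Running the other way, whdp16b12_73 had 2.62 and 2.80 in crown at 4 °C, against 1.15 and 1.24 at 24 °C, and 1.82 and 1.92 in leaf at 4 °C, against 3.36 and 3.25 at 24 °C. The last, whdp20o05_9, rose by 1.86 in crown and fell by 2.68 in leaf.

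Rises were fewer and smaller. In crown the largest among probes measured on all arrays compared was that of rwhdp20d11_436, with −0.75 and −0.76 at 4 °C, against −4.22 and −4.18 at 24 °C, or 10.9-fold. Its leaf levels stayed between 1.16 and 1.35 on all 4 arrays, and the leaf change was 0.10 ± 0.07. Next came whdp16i01_141, whose change of 2.15 ± 0.11 took it to −2.75 and −2.93 at 4 °C, against −4.92 and −5.05 at 24 °C. The crown also gave rises of 1.87 ± 0.19 for whdp4p13_585, 1.84 ± 0.07 for rwhdp6n15_509 and 1.82 ± 0.11 for whdp7b07_656 (limma adjusted p 0.00026, 5.5e-06 and 3.2e-05). With warm crown signals not well above background, whdp16e01_44 was at least 5.56-fold higher and rwhdp12m15_579 at least 4.26-fold higher in cold crown. With normexp and the 75th percentile the crown rises of whdp16i01_141, whdp4p13_585, whdp7b07_656, whdp16e01_44 and rwhdp12m15_579 were no longer called, at 0.93, 0.49, 0.75, 0.58 and 0.45.

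The single largest rise was in leaf. The probe rwhdp12m15_579 stood at 1.05 and 1.08 in leaf at 4 °C, against −4.29 and −4.37 at 24 °C, or 41.9-fold higher (limma adjusted p 1.5e-05). In crown it stood at −4.03 and −3.97 at 4 °C, against −7.09 and −8.05 at 24 °C. The other leaf rises named by size were those of rwhdp13h20_148 at 2.93 ± 0.08, whdp20g20_325 at 2.61 ± 0.11, rwhdp18b02_60 at 2.31 ± 0.19 and whdp20d12_104 at 1.88 ± 0.05. With normexp and the 75th percentile the last 2 were 0.64 each and no longer called. Of probes well above background in cold leaf and on neither warm leaf array, whdp17c24_22 gave the only bound above 1, at least 1.17-fold higher, and its change of 0.22 ± 0.22 was not called.

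The difference between the tissues in response was itself tested. It was higher in crown for 43 of the 157 probes (27.4%) and lower for 38 (24.2%), beside 29.4% and 16.4% of all probes tested. Some of the 43 were well above background on no leaf array, so that their leaf response was not measured. For rwhdp6d03_347 the difference was called at 1.36, although its crown change of −0.34 was not called. Its undetected leaf signals read −9.47 and −9.85 at 4 °C, against −8.02 and −7.90 at 24 °C. Of the 43, 11 fell in leaf without a call in crown, and 10 rose in crown without a call in leaf. Of the 38, 16 fell in both tissues and 11 fell in crown without a call in leaf. The group of 31 steep falls gave 14 of these calls, but 13 of the 14 lacked a signal well above background on at least 1 cold array, so that the sizes of their falls were not measured in both tissues. Of the 4 probes of the group that were measured on all cold arrays, 3 had the larger fall in crown and whdp2b07_159 was called so. The number of weeks in the cold differed between the tissues, and its part in these differences was not tested. Rises made up 53.1% of the whdp calls in this test, but 41.8% on a common floor and 38% with quantile normalization. With median scaling they made up 42.9%, and with spike-in scaling 67.4%.

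Besides those already described, the responses that differed most were these. With 2.89 ± 0.09, whdp13j24_541 responded higher in crown, since it had −3.45 and −3.49 in crown at 4 °C against −4.19 and −4.17 at 24 °C, and −5.85 and −5.81 in leaf at 4 °C against −3.72 and −3.59 at 24 °C. The probe whdp18b02_28 gave 2.69 ± 0.34, with −1.29 and −1.18 in crown at 4 °C against −2.39 and −1.94 at 24 °C, and −4.27 and −4.08 in leaf at 4 °C against −2.72 and −2.11 at 24 °C. In whdp1p10_588 both tissues fell, with changes of −1.25 ± 0.10 in crown and −3.70 ± 0.10 in leaf, which left a difference of 2.45 ± 0.15. All 3 were thus called lower in cold leaf, and of the 3 only whdp1p10_588 was called in crown. With normexp background subtraction its difference was 0.97 or 0.42, by scaling, and was no longer called.

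Crown and leaf differed in many whdp probes at either temperature, as they did in many probes of the whole array. At 24 °C, 49 of 142 were higher in crown (34.5%) and 31 lower (21.8%), beside 29.1% and 25.9% of all probes tested. At 4 °C, 54 of 136 were higher in crown (39.7%) and 37 lower (27.2%), beside 34.6% and 23.8%. The balance depended on the scaling: 61.2% of the calls at 24 °C were higher in crown, or 87% with spike-in scaling, and 59.3% at 4 °C, or 35.1% with quantile normalization, 46.4% with median scaling, 48.8% with the authors' deposited values and 85.4% with spike-in scaling. Of 121 tested at both temperatures, 23 were higher in crown at both (19%, against 21.7% of all probes so tested) and 21 lower at both (17.4%, against 16%). Another 7 were higher in crown at 24 °C and lower at 4 °C (5.79%, against 1.75%), and whdp20o05_9 alone was lower at 24 °C and higher at 4 °C (0.826%, against 1.09%). Of the 31 steep falls, 30 had the higher warm level in crown and 17 were called so, with a median of 1.19. The exception, whdp6e16_223, had −3.92 and −3.04 in crown against −1.52 and −1.34 in leaf at 24 °C, and was called lower. The size of the warm excess in crown depends on the array, since the warm crown arrays disagreed on nearly all of the 31. Their medians over the 31 were −1.78 on array 1 and −0.78 on array 2. On the warm leaf arrays the medians were −2.34 and −2.02.

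**Figure D4:**
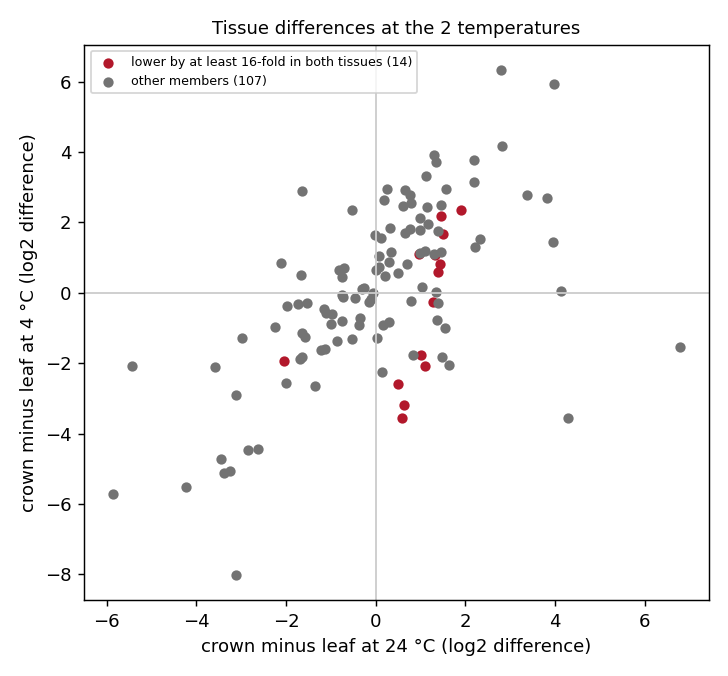
Crown minus leaf difference (log2) at 24 °C (x axis) and at 4 °C (y axis) for the 121 whdp and rwhdp probes tested at both temperatures. The 14 red points belong to the probes lower by at least 16-fold in the cold in both tissues. Points lie in all 4 quadrants, and the lowest at 4 °C is whdp20g20_325 at −8.02.

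Leaf-rich probes were led at 24 °C by rwhdp20d11_436, with −4.22 and −4.18 in crown against 1.32 and 1.16 in leaf, or 43.3-fold lower in crown. Also lower in crown at 24 °C were rwhdp14a01_456 by −3.38 ± 0.06, whdp11k15_18 by −3.13 ± 0.07 and whdp11o04_388 by −2.99 ± 0.08. At 4 °C the largest deficit in crown was that of whdp20g20_325, 259-fold lower with non-overlapping arrays. It was followed by whdp14a01_9 at −5.72 ± 0.10, rwhdp6j04_118 at −5.51 ± 0.08, rwhdp14a01_456 at −5.13 ± 0.06 and rwhdp12m15_579 at −5.06 ± 0.29. Probes of clone whdp14a01 were leaf-rich under both prefixes.

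Crown-rich probes at 24 °C were led by whdp20d12_104, 110-fold higher in crown, and by whdp16h12_282 and rwhdp13h20_148 as given above. Of smaller size were whdp8e23_537, with −2.49 and −2.45 in crown against −5.21 and −5.30 in leaf, and whdp20n15_24 at 2.53 ± 0.25, which were no longer called with normexp and the 75th percentile (0.98 and 0.99). At 4 °C the largest excess in crown among probes measured on all 4 arrays was that of whdp15m19_m_302, with −2.23 and −2.52 in crown against −6.35 and −5.82 in leaf. This 13.1-fold difference stood beside a crown fall of 3.8-fold and a leaf fall of 19.6-fold in the cold. Then came whdp16e01_44 at 3.34 ± 0.22, whdp2k23_179 at 3.16 ± 0.11, whdp18b02_28 at 2.94 ± 0.24 and whdp11p08_238 at 2.93 ± 0.20. With normexp and quantile normalization whdp16e01_44 and whdp2k23_179 were no longer called, at 0.86 and 0.75.

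A smaller number of whdp probes gave a strong signal on every array, and 3 were named for the highest mean signal. In whdp19j13_39 the levels were 2.72 and 2.73 in crown at 4 °C against 4.64 and 4.57 at 24 °C, and 3.57 and 3.69 in leaf at 4 °C against 4.52 and 4.39 at 24 °C. It fell in crown by 1.88, and its leaf change of −0.82 did not reach 2-fold. In whdp20n04_216 the levels were 1.68 and 1.75 in crown at 4 °C against 2.65 and 2.64 at 24 °C, and 4.28 and 4.48 in leaf at 4 °C against 4.00 and 4.00 at 24 °C. For rwhdp14g16_162 the fall was called in leaf, with 2.00 and 2.12 at 4 °C against 3.26 and 3.64 at 24 °C.

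At the other end, the steadiest probes hardly moved between groups on this scale. Over its 4 group means whdp6m16_569 had an SD of 0.14, with a mean level of −5.05, though its warm crown arrays read −5.51 and −4.42. For rwhdp18a16_543 the SD was 0.19 at a mean level of −1.82, and for whdp19f14_539 it was 0.24 at −4.32. None of the 3 was called in either cold response.

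Where a clone had a probe of each prefix, the 2 did not always share a call. Pairs of other name stems were not compared. Probes of both prefixes were on the array for 31 clones. In 16 clones both were detected, in 8 one was, and in 7 neither was. Of 16 pairs tested in crown, 9 had no call on either probe, 5 had one, 1 was called lower on both and 1 had opposite calls. Of 14 pairs tested in leaf, 7 had no call on either, 6 had one, 1 had opposite calls and none had the same call on both.

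Clone whdp16f01 gave the widest split in leaf. Its rwhdp16f01_340 probe had −1.78 and −1.84 in crown at 4 °C against −0.36 and 0.29 at 24 °C, and −0.03 and −0.02 in leaf at 4 °C against −0.92 and −0.80 at 24 °C. Its whdp16f01_306 probe had −8.89 and −10.47 in crown at 4 °C against −0.59 and 0.49 at 24 °C, and −9.04 and −8.21 in leaf at 4 °C against −1.33 and −1.14 at 24 °C. The rwhdp16f01_340 probe was well above background on all 8 arrays and the whdp16f01_306 probe on no cold array. The leaf change of rwhdp16f01_340 was 0.84 ± 0.20 without a call, while whdp16f01_306 was at least 112-fold lower.

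Clone whdp12m15 gave opposite calls in crown, where rwhdp12m15_579 was at least 4.26-fold higher in the cold, or 0.45 log2 without a call with normexp and the 75th percentile, and whdp12m15_198 changed by −1.27 ± 0.13. The whdp12m15_198 probe had −5.73 and −5.98 in crown at 4 °C against −4.68 and −4.49 at 24 °C, and 1 of its cold leaf spots was left out of the fit because the scanner software marked it as an outlier. The crown call of whdp12m15_198 was lost with spike-in scaling, at −0.38, and with normexp and quantile normalization, at −0.42. Clone whdp18b02 gave opposite calls in leaf, with rwhdp18b02_60 at −3.04 and −3.09 at 4 °C against −5.42 and −5.33 at 24 °C, and whdp18b02_28 changing by −1.76 ± 0.24, or by −0.83 without a call with normexp and quantile normalization. In clone whdp6n15 the rwhdp probe rose in crown by 1.84, while whdp6n15_481 changed by −0.43 ± 0.14 without a call.

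Other clones were named for the widest or the smallest difference in mean signal between their probes, a choice that does not compare transcript amounts. Of the widest, clone whdp14a01 had called changes on its whdp probe alone. In leaf whdp14a01_9 had −1.33 and −1.41 at 4 °C against −2.46 and −2.36 at 24 °C. In crown its call rests on 24 °C signals that were not well above background, with 4 °C levels below the lowest level detected on the warm arrays, so no fold is given, and its change was −0.69 with normexp and the 75th percentile and 0 on a common floor. The rwhdp14a01_456 probe changed by −0.81 ± 0.06 in crown and 0.94 ± 0.06 in leaf without a call. On clone whdp11p08 the rwhdp probe was well above background in cold crown only, while whdp11p08_238 fell in leaf by 2.13 ± 0.20 and changed by 0.15 ± 0.20 in crown. On clone whdp11c17 the rwhdp probe had −0.82 and −0.78 in crown at 4 °C against −1.29 and −1.26 at 24 °C, and the whdp probe −0.74 and −0.77 against −1.78 and −1.65. Neither probe of that clone was called in either tissue. Clone whdp2p19 was named among the closest with 1 outlier-marked warm leaf spot of whdp2p19_545 included, and that spot was left out of the fit.

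**Figure D5:**
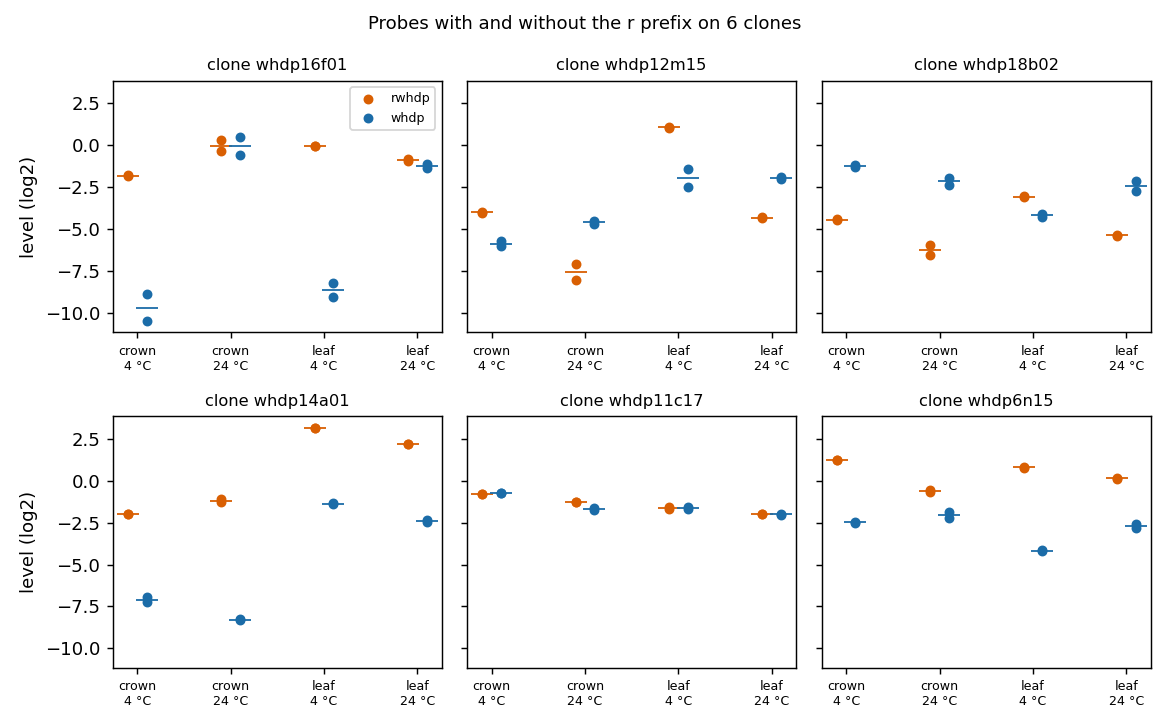
Level (log2, relative to the array's 75th percentile) of the rwhdp probe (orange) and the whdp probe (blue) of 6 clones in the 4 groups. Points are single arrays and dashes the mean of 2. In clone whdp16f01 the whdp probe is low in both 4 °C groups and the rwhdp probe is not, while on clone whdp11c17 neither probe was called in either cold response.

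The scaling bears on the balance of rises and falls. With arrays scaled to their spike-in controls instead, a choice made after the data were seen, the median of all probes moved by 1.06 in crown and by 0.37 in leaf. Then 52 of the 157 whdp probes were called higher in cold crown, and 50% of the whdp calls were rises, against 20.9% with the 75th percentile. In leaf 26.9% were rises, against 13.7%. Relative to all probes the whdp probes still lay lower, with medians of 0.09 in crown and −0.40 in leaf.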

How the data were processed

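The authors deposited 1-colour (Cy3) Agilent scanner files, one per array, whose processed signal intensity is background-subtracted per the file headers, and a value table of the same arrays. Feature Extraction 9.5 is named per the submitters' processing notes; per the file headers version 10.5.1.1 read both 4 °C groups, 10.7.3.1 warm crown and 9.5.3.1 warm leaf. From these, log2 processed signal minus each array's 75th percentile was computed, and 1417 control spots and outlier-marked spots were left out. Group means of 8 arrays were fitted with limma 3.58.1 in R 4.3.3. A probe was tested where both arrays of at least 1 group compared were well above background; p-values were adjusted by Benjamini-Hochberg over all probes tested. The fit was tested on simulated levels of probes well above background on all 8 arrays. That test does not cover signals near background, on which most of the steep falls rest. The 2 arrays per group limit the precision, and no spot of the whdp probes was saturated.

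Probes were named by rule: the 5 largest rises and falls per comparison among called probes detected on every array compared and without outlier marks, the 2 largest bounds per cold response and direction, the 3 brightest and 3 steadiest, the 3 largest and smallest differences in mean signal between prefixes of a clone, and the 3 clones whose probes differed most in call. Probes outside it (whdp13p23_90, whdp20o22_p_367, whdp20o05_9, whdp6e16_223) were chosen after their values were seen. The members and lists were chosen with earlier results of these data known. Same-numbered arrays of compared groups correlated in their deviations at −0.07 to 0.11, so the numbers were not taken as pairs. Alternatives changed the scaling, background treatment, filter, outliers, thresholds, variance model, groups fitted, replicate and slide blocks, and each array in turn. Since no slide was shared between groups, the slide block cannot separate slide from group.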

Additional observations from a re-analysis of the deposited data

Results flagged for a closer look

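The crown and leaf responses to cold differed by the test of the difference itself for 43 whdp probes that responded higher in crown (27.4%, against 29.4% of all probes) and for 38 that responded lower (24.2%, against 16.4%). With quantile normalization 27 responded higher. Some of these calls in either direction rest on signals that were not well above background. Among those measured on all 8 arrays, the crown minus leaf response was lowest for whdp20d12_104 (−8.31), whdp16h12_282 (−7.83), whdp20g20_325 (−4.90), rwhdp13h20_148 (−4.07) and rwhdp17k02_125 (−3.68). It was highest for rwhdp20d11_436 (3.35), whdp16b12_73 (2.95), whdp13j24_541 (2.89), whdp18b02_28 (2.69) and whdp1p10_588 (2.45). Length of cold, plant age, scan day, slide, and the software version and scanner of the 24 °C arrays differed along with tissue. Their part in these differences was not tested. Groups of 2 arrays are too small for a test of single outlying arrays.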

How the results depend on the processing

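Of 262 recomputed counts of whdp probes, 229 stayed within 1.5 times the reported one. The exceptions were these. With quantile normalization 27 probes responded higher in crown than in leaf and 26 were higher in crown at 4 °C. With normexp and quantile normalization 8 rose in crown, 16 responded higher in crown, 9 were higher in crown at 4 °C and 3 fell at least 16-fold in both tissues. With normexp and the 75th percentile 4 rose in crown, 5 rose in leaf, 23 responded higher in crown, 22 and 18 were higher in crown at 24 °C and 4 °C, and 5 fell at least 16-fold in both. On a common floor 28 responded higher in crown, 27 were higher in crown at 4 °C and 14 fell at least 16-fold in both. With probes detected on all 8 arrays only, which tests 85 probes, 7 rose and 30 fell in crown, 6 rose and 29 fell in leaf, 22 and 21 responded higher and lower in crown, 20 were higher in crown at 24 °C, 22 and 24 were higher and lower in crown at 4 °C, and 4 fell at least 16-fold in both. Without the fold threshold 35 rose in crown and 29 in leaf. With spike-in scaling, chosen after the data were seen, 52 rose in crown and 21 in leaf, 94 and 14 were higher and lower in crown at 24 °C, and 88 and 15 at 4 °C. The cause of these shifts was not tested.

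With single arrays left out, the counts were 17 to 21 rises and 67 to 70 falls in crown, 9 to 11 and 62 to 66 in leaf, 34 to 47 and 34 to 47 for the difference in response, 33 to 61 higher and 28 to 32 lower in crown at 24 °C, 45 to 54 and 34 to 37 at 4 °C, and 31 to 33 for falls of at least 16-fold in both. The 61 and 33 came from leaving out warm crown array 1 and array 2; a lone array was assumed to vary like the other groups. With the replicate number as a block, 18 rose and 68 fell in crown, 9 rose and 62 fell in leaf, and 31 fell at least 16-fold in both. Same-numbered arrays shared only a number, and the deviations of 24 °C crown and leaf correlated at 0.11. Of 1409 values for named probes, 1379 were unchanged in call and direction or moved by less than the replicate spread, 19 lost the call and 9 values without a test moved further. The crown change of whdp14a01_9 turned to −0.69 with normexp and the 75th percentile and was 0 on a common floor. Signals near background limit the steep falls to bounds, and 2 arrays per group limit every test.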
